A study of Oryza sativa with 5 samples.

Results

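Chromosome 7 of rice carries 2 stretches that differ in opposite directions for a pair of histone marks. The left stretch runs from 1.0 to 11.1 Mb and the right stretch from 13.1 to 28.6 Mb, in the coordinates of the deposited peak lists. The members are all peaks of 4 lists whose midpoint lies in either stretch, 6196 of the 96576 peaks in the series. The left stretch (10.1 Mb) held 2515 of them and the right stretch (15.5 Mb) 3681. The pair of stretches was chosen by the measured density of the 2 marks in these same libraries, so every comparison of left with right below is a description and carries no test.

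The peaks come from chromatin immunoprecipitation and sequencing of male meiocytes (pollen mother cells) of Oryza sativa in early prophase I, prepared from pellets of 8000 to 10000 cross-linked cells. An abcam antibody against H3K4me3 and a Cell Signaling Technology antibody against H3K27me3 were each used on 2 biological replicates, per the labels. The 4 libraries carry no further treatment or genotype label. The remaining sample, an input library, was not analysed here. Each library is represented by its own list of peaks, so the sequencing depth is unknown and no value below is a read count. The sources used here do not name the genome build of the lists, and therefore no gene is assigned to a position and no sequence is shown.

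H3K4me3, the trimethylation of lysine 4 of histone H3, is found in plants chiefly at the starts of transcribed genes, where it forms short peaks. H3K27me3, the trimethylation of lysine 27, is laid down by Polycomb repressive complex 2 over genes that are kept silent in a given cell type, and it often spans a whole gene or a run of neighbouring genes. Both marks are usually sparse in the repeat-rich chromatin around plant centromeres. In several plants meiotic recombination is concentrated in open, H3K4me3-marked chromatin near gene ends, and H3K4me3 in meiocytes is studied partly for that reason.

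H3K27me3 differed much more between the stretches than H3K4me3 did. In replicate 1, H3K27me3 peaks covered 7.84% of the left and 4.88% of the right stretch. In replicate 2 they covered 6.86% and 3.64%. Both libraries were higher on the left, and on the log2 scale right over left came to -0.80 ± 0.16 (mean ± SD, n = 2 libraries), a 1.74-fold higher coverage on the left.

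H3K4me3 showed the other order at a smaller size. Its peaks covered 4.57% of the left and 5.42% of the right stretch in replicate 1, and 3.10% and 3.63% in replicate 2. Right over left was 0.24 ± 0.01 on the log2 scale (mean ± SD, n = 2 libraries), or 1.18-fold higher on the right. For each mark the gap between replicates in this ratio was smaller than the gap between the marks. The H3K4me3 levels themselves were separated only within a library, because replicate 1 exceeded replicate 2 in both stretches by more than right exceeded left. The smallest two-sided p of an exact permutation test of 2 libraries against 2 is 0.333, and none was run.

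Against the whole lists, the left stretch lay above the genome in H3K27me3 and the right stretch further below it. The genome value was 6.88% in replicate 1 and 5.68% in replicate 2. It includes the chromosome ends, which the stretches leave out and which had 16.0% and 14.1% on chromosome 7. After 3.0 Mb the left stretch was below the genome too, at 5.26% and 4.55%. For H3K4me3 the genome value was 5.13% and 3.63%, so the left stretch was below it in both libraries, and the right stretch was above it in replicate 1 and at it in replicate 2.

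**Figure D1:**
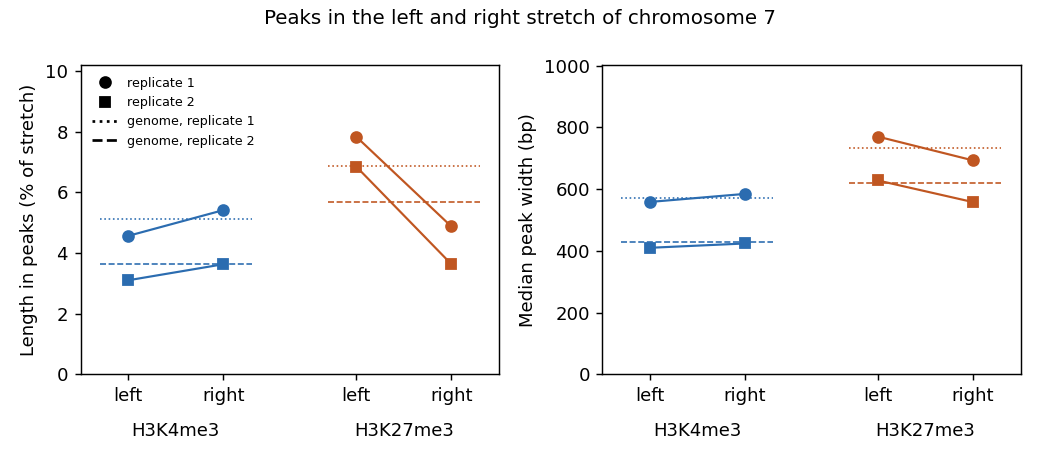
Length in peaks as a percentage of the stretch (left panel) and median peak width in bp (right panel) in the left and right stretch of chromosome 7, 1 point per library, circles for replicate 1 and squares for replicate 2, with horizontal lines at the value of each whole list. Both H3K27me3 lines fall from left to right (7.84 to 4.88% and 6.86 to 3.64%) and both H3K4me3 lines climb slightly (4.57 to 5.42% and 3.10 to 3.63%).

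The number of peaks moved the same way, but less. H3K4me3 replicate 1 had 718 peaks on the left (71.1 per Mb) and 1282 on the right (82.7 per Mb), and replicate 2 had 655 (64.9 per Mb) and 1138 (73.4 per Mb). H3K27me3 replicate 1 had 569 peaks on the left (56.3 per Mb) and 666 on the right (43.0 per Mb), and replicate 2 had 573 (56.7 per Mb) and 595 (38.4 per Mb). Left over right was thus 1.31 and 1.48 for H3K27me3 peak number, against 1.61 and 1.88 for H3K27me3 length, and the peaks were longer on the left as well.

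The median width of H3K27me3 peaks was 770 bp on the left and 693 bp on the right in replicate 1, and 628 bp and 558 bp in replicate 2. The mean width differed more, at 1392 bp and 1137 bp in replicate 1 and 1209 bp and 948 bp in replicate 2. H3K4me3 widths were close to each other, with medians of 558.5 bp and 584.5 bp in replicate 1 and 410 bp and 424 bp in replicate 2. The median peak of each stretch ranked near the middle of its list by the authors' fold enrichment. The percentile for H3K4me3 was 50.4 on the left and 51.3 on the right in replicate 1, and 50.1 and 49.9 in replicate 2. The percentile for H3K27me3 was 51.2 and 47.1 in replicate 1 and 50.1 and 45.6 in replicate 2, lower on the right in both.

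The longer the class of H3K27me3 peak, the more it favoured the left stretch, up to 5000 bp in both libraries. Peaks under 500 bp numbered 17.1 per Mb on the left and 15.2 per Mb on the right in replicate 1, and 22.4 and 17.2 per Mb in replicate 2. Peaks of 2000 to 5000 bp numbered 7.62 and 4.52 per Mb in replicate 1, and 7.52 and 3.23 per Mb in replicate 2. Left over right went from 1.13 in the shortest class through 1.30, 1.32 and 1.69 to 2.30 at 5000 bp and over in replicate 1. In replicate 2 it went from 1.30 through 1.47 and 1.47 to 2.33, with 2.01 at 5000 bp and over.

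The class of 5000 bp and over held few peaks. There were 24 on the left and 16 on the right in replicate 1, and 17 and 13 in replicate 2. Peaks of at least 2000 bp made up 56.4% of the H3K27me3 peak length on the left and 44.4% on the right in replicate 1, and 53.8% and 39.0% in replicate 2. Polycomb domains of this length commonly take in an entire gene, although the lists do not show it here.

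**Figure D2:**
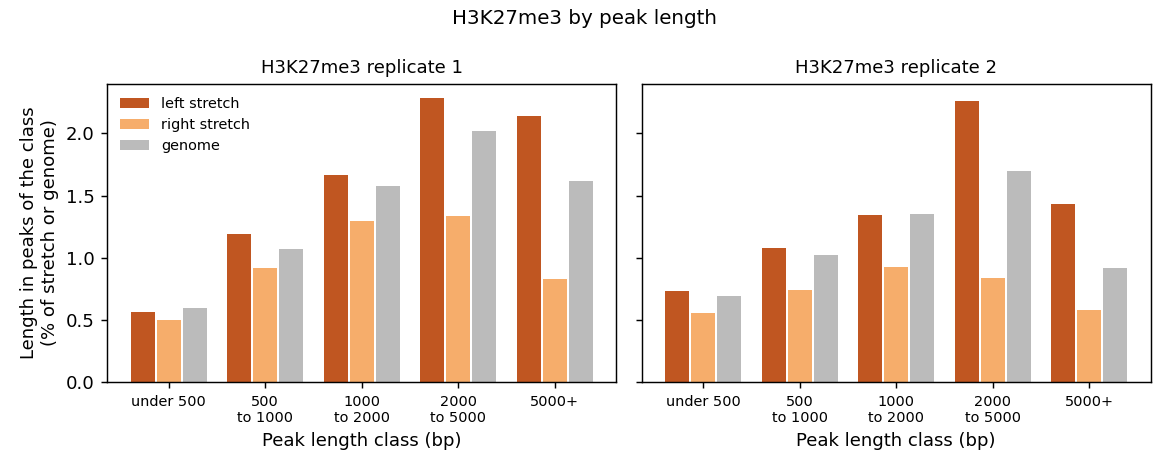
H3K27me3 length by class of peak length (bp, x axis), as a percentage of the left stretch, the right stretch or the genome (y axis), 1 panel per replicate. In the 2000 to 5000 bp class the left stretch stands at 2.28% and 2.26% and the right stretch at 1.34% and 0.840%.

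The 500 kb steps showed that neither stretch was uniform. The left stretch gave 21 steps, the last only 100 kb long, and the right stretch 31. The mean H3K27me3 coverage of the 2 libraries ranged from 1.49% to 21.6% over the left steps, with a median of 4.77%. Over the right steps it ranged from 0.492% to 10.4%, with a median of 3.28%. Both medians lay below the 5.40% that was the median of all genome steps. Of the left steps, 17 of 21 exceeded the right median, and of the right steps, 12 of 31 exceeded the left median. The first share, 81.0%, was 63.6% of 11 steps when steps of 1 Mb were used.

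H3K4me3 coverage ranged from 0.815% to 6.37% over the left steps (median 3.61%) and from 0.875% to 9.20% over the right steps (median 4.68%). Of the right steps, 19 of 31 exceeded the left median and 11 exceeded the highest left step, while 0 left steps exceeded the highest right one. The replicates ordered the steps alike. Spearman's rho between the 2 libraries of a mark was 0.97 over the left steps for both marks, and over the right steps 0.98 for H3K4me3 and 0.94 for H3K27me3, given as a description of steps that share libraries and neighbours.

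Dense H3K27me3 steps were found on the left and none on the right. A dense or poor step was taken as one among the 10% highest or 10% lowest of the 740 steps of the genome, a limit set after the values were seen. For H3K27me3, 4 of the 21 left steps and 0 of the 31 right steps were among the highest 10%, and 0 and 3 among the lowest. For H3K4me3, 0 left and 4 right steps were among the highest, and 1 and 4 among the lowest.

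The densest H3K27me3 step was that from 2.0 to 2.5 Mb, with 23.4% and 19.8% of its length in peaks of replicates 1 and 2. The step before it, from 1.5 to 2.0 Mb, had 20.7% and 18.8%. The last step, the 100 kb that end at 11.1 Mb, had 23.2% and 18.5%, but its short length lets a few peaks set its value. The poorest left steps for this mark were those from 5.5 to 6.0 Mb (1.81% and 1.17%), 10.5 to 11 Mb (2.31% and 1.69%) and 7.0 to 7.5 Mb (2.57% and 2.41%).

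The richest left step in H3K4me3 was the same one, from 2.0 to 2.5 Mb, with 7.61% and 5.13% in peaks. It was followed by 4.0 to 4.5 Mb (7.46% and 5.09%) and 5.0 to 5.5 Mb (6.85% and 4.92%). The step densest in H3K27me3 was thus also the left step densest in H3K4me3. The poorest left steps in H3K4me3 lay toward the gap, at 9.5 to 10.0 Mb (0.956% and 0.675%), 8.5 to 9.0 Mb (1.76% and 1.13%) and 10.5 to 11 Mb (1.81% and 1.23%). The second of these had 9.38% and 8.52% of its length in H3K27me3.

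On the right, the richest H3K4me3 steps lay between 23.1 and 26.1 Mb, at 23.1 to 23.6 Mb (11.4% and 7.02%), 25.6 to 26.1 Mb (10.2% and 7.61%) and 23.6 to 24.1 Mb (9.63% and 6.17%). The richest H3K27me3 steps were those at 26.1 to 26.6 Mb (11.4% and 9.42%), 23.6 to 24.1 Mb (10.03% and 8.83%) and 21.6 to 22.1 Mb (11.3% and 6.87%). The step from 23.6 to 24.1 Mb was among the richest for both marks. The same 3 right steps were poorest in both marks. From 13.6 to 14.1 Mb H3K4me3 covered 1.14% and 0.609% and H3K27me3 1.07% and 0.310%. From 14.1 to 14.6 Mb the values were 1.19% and 0.934% for H3K4me3 and 0.560% and 0.499% for H3K27me3. From 27.1 to 27.6 Mb they were 1.34% and 0.592%, and 0.767% and 0.217%.

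**Figure D3:**
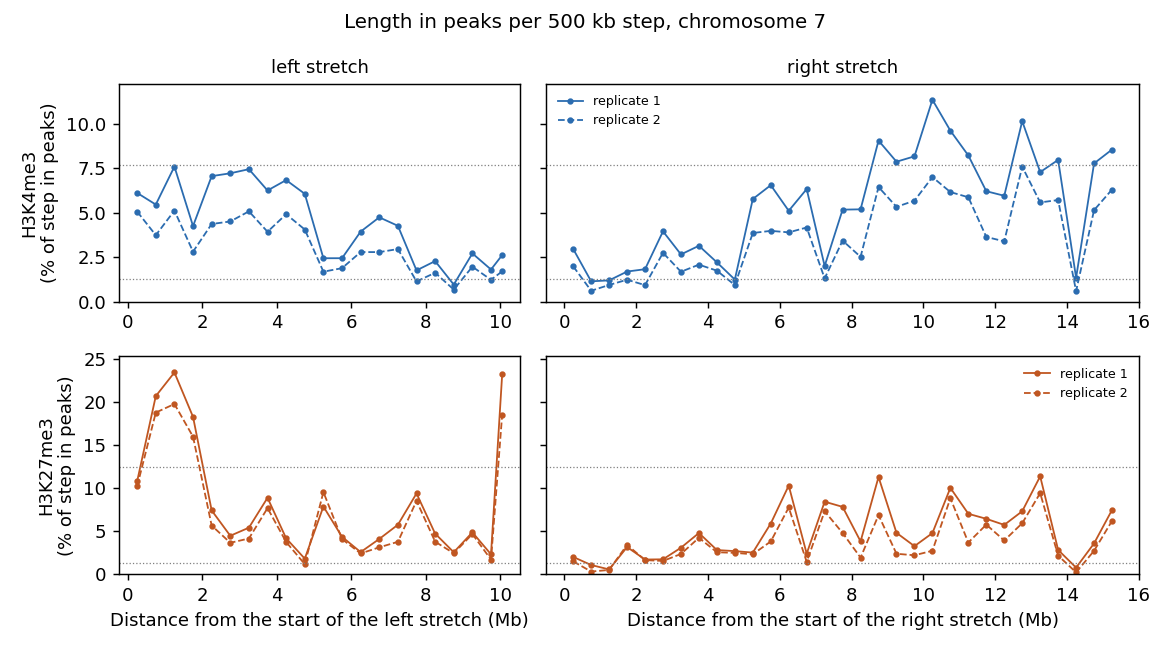
Percentage of each 500 kb step in peaks (y axis) against the distance from the start of its stretch in Mb (x axis), for H3K4me3 (upper row) and H3K27me3 (lower row), solid lines for replicate 1 and dashed lines for replicate 2. Grey dotted lines mark the limits of the lowest and highest 10% of all genome steps. H3K27me3 reaches 23.4% and 19.8% near the start of the left stretch, and H3K4me3 11.4% and 7.02% in the right stretch, 10 Mb or more from its start.

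Within each stretch the marks were related differently. Over the right steps mean H3K4me3 and H3K27me3 coverage had a Spearman's rho of 0.60 (n = 31), and over the left steps 0.18 (n = 21). The 740 steps of the genome gave 0.45. These are descriptions over neighbouring steps, and the marks share no library. Of the right steps, 10 lay above the genome median in H3K4me3 alone and 1 in H3K27me3 alone, while 8 lay above both and 12 above neither. Of the left steps, 4 lay above in H3K4me3 alone and 4 in H3K27me3 alone, 5 above both and 8 above neither. Steps above the genome median in H3K27me3 alone thus made up 3.23% of the right steps, 19.0% of the left steps and 16.9% of those of the genome. The 4 left ones include the last step, which is only 100 kb long.

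Much of the left excess of H3K27me3 lay in its first 2 Mb. This piece was singled out after the values were seen. From 1.0 to 3.0 Mb, 19.8% of the left stretch, H3K27me3 covered 18.3% and 16.2% of the length in the 2 libraries and held 46.2% and 46.7% of the H3K27me3 of the stretch. It also held 15 of the 24 left peaks of at least 5000 bp in replicate 1 and 11 of the 17 in replicate 2. H3K4me3 there was 5.86% and 4.19%, above the rest of the left stretch.

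Without those 2 Mb the left stretch had 5.26% and 4.55% H3K27me3, still above the 4.88% and 3.64% of the right stretch in each library. Both values lay below those of the genome, 6.88% and 5.68%. Right over left was then -0.21 ± 0.15 (mean ± SD, n = 2 libraries). The share of H3K27me3 length in peaks of at least 2000 bp no longer favoured the left, with right minus left at 0.288 ± 1.04 percentage points in place of -13.4 ± 2.00. The higher share of long peaks on the left was thus not seen outside its first 2 Mb.

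The right stretch also had a part of its own. Its first 5 Mb, from 13.1 to 18.1 Mb, was poor in both marks, with 2.20% and 1.49% H3K4me3 and 2.36% and 2.05% H3K27me3. The remaining 10.5 Mb had 6.95% and 4.65% H3K4me3 and 6.09% and 4.40% H3K27me3. Set beside the left stretch after 3.0 Mb, which had 4.25% and 2.84% H3K4me3, this outer right part was higher in H3K4me3 in both libraries. In H3K27me3 it was higher in replicate 1 (6.09% against 5.26%) and lower in replicate 2 (4.40% against 4.55%).

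Blocks at like distance from the gap between the stretches gave a further view. The left stretch was cut into 2 blocks of 5.05 Mb and the right stretch into 3 blocks of 5.17 Mb. In the block next to the gap, H3K4me3 was 2.74% and 1.88% on the left and 2.36% and 1.57% on the right, higher on the left in both libraries. In the second block from the gap it was 6.39% and 4.33% on the left and 6.42% and 4.22% on the right, where the libraries differed in order. The third block, found on the right alone, had 7.47% and 5.11%. Cut to the 10.1 Mb nearest the gap, the right stretch had less H3K4me3 than the left (log2 of right over left -0.13 ± 0.02, mean ± SD, n = 2 libraries). The higher H3K4me3 of the whole right stretch thus depended on its outer part.

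H3K27me3 was higher on the left at both distances. It was 5.24% and 4.69% on the left and 2.46% and 2.17% on the right in the block next to the gap. In the second block it was 10.4% and 9.02% on the left and 5.80% and 3.83% on the right. The third right block, with 6.39% and 4.93%, was also below the outer left block. That left block, however, holds the first 2 Mb of the stretch, with 18.3% and 16.2%. Its steps from 3.0 to 6.0 Mb had mean values of 1.49% to 8.28%. The difference from the outer left block was not computed without those 2 Mb.

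The longest H3K27me3 regions repeated this layout. A region here is a run of bases covered in both replicates of a mark. The left stretch had 490 H3K27me3 regions (48.5 per Mb, median 607.5 bp) and the right stretch 477 (30.8 per Mb, median 554 bp). Of these, 76 and 50 were at least 2000 bp long, and 13 and 12 at least 5000 bp. The spacing between neighbouring regions had a median of 1762 bp on the left and 3362.5 bp on the right, against 1887.5 bp in the genome.

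Of the 5 longest left regions, 4 lay before 3.0 Mb. The longest spanned 1547586 to 1572310 (24725 bp), with a fold percentile of 98.0 in replicate 1 and 99.0 in replicate 2, and it overlapped 1 H3K4me3 region over 255 bp. Next came 2015118 to 2027290 (12173 bp), 1442803 to 1453332 (10530 bp), 3219243 to 3229442 (10200 bp) and 2835668 to 2844684 (9017 bp). H3K4me3 regions took up at most 3.17% of any of these 5. The fourth overlapped no H3K4me3 peak in either library.

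The 5 longest right regions were shorter, at 7094 to 10912 bp. The longest spanned 23862027 to 23872938, overlapped 2 H3K4me3 regions over 548 bp and had a fold percentile of 93.0 and 92.8. The others lay at 19337120 to 19345058 (7939 bp), 16932238 to 16939864 (7627 bp), 24466815 to 24474164 (7350 bp) and 25852410 to 25859503 (7094 bp). H3K4me3 occupied 9.88% of the fourth, the most of these 10 regions, while no H3K4me3 peak overlapped the second and the last.

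The widest H3K4me3 regions were alike in both stretches. The left stretch had 623 H3K4me3 regions with a median of 402 bp and the right stretch 1084 with a median of 408 bp, and none reached 2000 bp. The 5 widest measured 1286 to 1559 bp on the left and 1386 to 1626 bp on the right. The widest left region was 2751312 to 2752870, within the H3K27me3-rich first 2 Mb, and the widest right region was 24087815 to 24089440. None of the 10 touched an H3K27me3 region. Those at 24349056 to 24350572 and 23582482 to 23583896 on the right each overlapped 1 peak of H3K27me3 replicate 1.

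Stretches with no H3K27me3 peak in either replicate took up more of the right. Counting runs of at least 50 kb, 54 on the left filled 49.6% of the stretch and 80 on the right filled 56.8%. The longest right run, from 27020588 to 27569302 (549 kb), held 19 and 14 peaks of H3K4me3 replicates 1 and 2. The next, 13729123 to 14112576 (383 kb) and 14113054 to 14491504 (378 kb), held 1 to 3 H3K4me3 peaks in each library. On the left the longest runs were 9524860 to 9824432 (299.6 kb), 6495594 to 6666418 (171 kb) and 5749766 to 5919554 (169.8 kb). The last of these held 15 and 20 H3K4me3 peaks, so it was free of H3K27me3 but not of H3K4me3.

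For H3K4me3 the runs filled 26.0% of the left stretch (29 runs) and 22.9% of the right (35 runs). The longest were at 14134192 to 14491569 (357 kb), 13780426 to 14133933 (354 kb) and 27234336 to 27514619 (280.3 kb) on the right, with at most 1 H3K27me3 peak per library in each. On the left they were at 9573319 to 9830765 (257 kb), 6495233 to 6661041 (166 kb) and 8536189 to 8682541 (146 kb). The last held 4 and 9 H3K27me3 peaks.

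H3K4me3 peaks overlapped H3K27me3 more often on the left. Of the H3K4me3 replicate 1 peaks, 18.8% on the left (95% Wilson interval 16.1 to 21.8%) and 11.9% on the right (10.3 to 13.8%) touched an H3K27me3 region by at least 1 bp. For replicate 2 it was 17.9% (15.1 to 20.98%) and 11.2% (9.46 to 13.1%). The genome value was 14.9% and 14.8%, between the stretches. Right minus left averaged -6.79 percentage points, but -3.89 without the first 2 Mb of the left stretch and -3.35 with peaks whose −log10 q reached 5. Among H3K4me3 regions, 25.2% in those 2 Mb, 14.1% in the rest of the left stretch (11.2 to 17.6%) and 10.9% in the right stretch after 18.1 Mb (9.07 to 13.1%) touched H3K27me3, and the last 2 intervals overlap. These intervals hold counting error alone, while peaks near each other are not independent. H3K27me3 regions themselves covered 5.61% of the left and 2.95% of the right stretch, and the part of that difference in the overlap was not tested. The share of the stretch with both marks was 2.52 times the product of the 2 region coverages on the left. On the right it was 2.66 times that product.

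Seen from H3K27me3 the order was the other way, with wide intervals. Of the H3K27me3 regions, 19.8% on the left (16.5 to 23.6%) and 22.6% on the right (19.1 to 26.6%) touched H3K4me3. The gap was present in every length class, for example 22.1% and 28.4% at 500 to 1000 bp. At 2000 to 5000 bp it was 30.2% and 36.8%. In every class the intervals of the stretches overlapped, and they hold counting error alone. In all, 7.17% of the H3K27me3 region length on the left and 8.88% on the right lay in H3K4me3 regions.

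Pieces with both marks numbered 107 on the left (10.6 per Mb) and 117 on the right (7.55 per Mb), with medians of 329 bp and 313 bp. The longest lay at 2062740 to 2063898 (1159 bp), 8059180 to 8060244 (1065 bp) and 2043153 to 2044213 (1061 bp) on the left. On the right they lay at 19362697 to 19363657 (961 bp), 21707637 to 21708478 (842 bp) and 20884940 to 20885759 (820 bp). In the first right piece the fold percentile was 91.9 and 98.0 for the H3K4me3 peaks of replicates 1 and 2, and 77.8 and 18.8 for those of H3K27me3. The marks were read from a population of cells, and a piece with both need not carry them on 1 chromatin fibre.

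H3K4me3 was also counted at the edges of the long H3K27me3 regions. Around the 76 left and 50 right regions of at least 2000 bp, the centre of 0 H3K4me3 regions lay in the 500 bp outside either border. H3K4me3 regions numbered 61.7 per Mb on the left and 69.9 per Mb on the right. These flanks are short, and neither an expected number nor a genome value was computed for them. In the 500 bp inside, 12 centres lay on the left and 7 on the right, or 0.158 and 0.14 per region. Deeper in the interior there were 20 and 20, or 0.263 and 0.4 per region. Of the long regions, 32.9% on the left and 40.0% on the right touched H3K4me3. The H3K27me3 regions that did not touch H3K4me3 were a median of 5534 bp from the nearest H3K4me3 region on the left and 4900 bp on the right.

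H3K4me3 peaks were shared between replicates at similar shares in both stretches, with intervals that overlap. In replicate 1, 79.8% of left peaks (76.7 to 82.6%) and 78.2% of right peaks (75.8 to 80.3%) overlapped a replicate 2 peak. In replicate 2 it was 94.8% (92.8 to 96.3%) and 94.6% (93.2 to 95.8%). Right minus left averaged -0.908 points and was 3.01 points with lists of equal length. For H3K27me3 the intervals of the stretches overlapped in replicate 2 and not in replicate 1. All these intervals hold counting error alone, and neighbouring peaks of a library are not independent, so they are no test between the stretches. Replicate 1 shared 70.1% (66.2 to 73.7%) on the left and 59.6% (55.8 to 63.3%) on the right, and replicate 2 79.2% (75.7 to 82.4%) and 77.0% (73.4 to 80.2%). The genome values were 67.2% and 79.8%. Without the first 2 Mb of the left stretch, right minus left was -10.4 points in replicate 1 and 1.26 in replicate 2, so the direction in replicate 2 turned. It turned as well, to 0.299 points, with the right stretch cut to its far 10.1 Mb. Bases covered by both H3K27me3 replicates over bases covered by either came to 0.617 on the left and 0.530 on the right, against 0.588 and 0.583 for H3K4me3.

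The unshared H3K27me3 peaks were shorter than the shared ones in both stretches. In replicate 1 the 269 on the right had a median of 460 bp, against 1016 bp for the 397 shared ones. On the left the medians were 431 bp and 1084 bp. In replicate 2 they were 320 bp and 679 bp on the right, and 351 bp and 772.5 bp on the left. Of the unshared peaks of replicate 1, 42.8% (37.0 to 48.7%) on the right touched a peak of H3K4me3 replicate 1. On the left 38.8% (31.8 to 46.3%) of the 170 unshared peaks did. Among the shared peaks of replicate 1 it was 36.8% (32.2 to 41.6%) on the right and 30.8% (26.5 to 35.5%) on the left. In each stretch these intervals overlap those of the unshared peaks, but the shared peaks are longer. By length the sets differed more. Peaks of H3K4me3 replicate 1 took up 41.8% of the unshared length on the right and 41.7% on the left. Of the shared length they took up 15.2% and 11.5%. Of the peaks found in H3K27me3 replicate 2 alone, 7 of 137 on the right and 1 of 119 on the left touched a peak of H3K4me3 replicate 1. This contrast between the H3K27me3 libraries was therefore present in both stretches. H3K27me3 replicate 1 was also the library with the smaller gap between the stretches, and the part of its H3K4me3-overlapping peaks in that was not tested.

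The last comparison set the 2 stretches against the arms of the other chromosomes. On the other chromosomes an arm was taken as what lies on either side of the 2 Mb with the fewest peaks, without the outer 1 Mb of the chromosome. The left arm of chromosome 9 was under 3 Mb and was left out, which gave 23 arms with the 2 stretches among them. On chromosome 7 the sparsest 2 Mb ran from 13.6 to 15.6 Mb, inside the right stretch and not in the gap between the stretches. Chromosome 7 was thus not divided by the rule used for the others. The places of its stretches among the arms may depend on that choice, and were not computed with the split at 13.6 to 15.6 Mb.

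By mean H3K27me3 coverage the left stretch took place 5 (7.35%) and the right stretch place 22 (4.26%) of 23 arms, with only the left arm of chromosome 4 lower (3.13%). The left arm of chromosome 12 had 4.40%, and its order with the right stretch turned between the libraries, at 4.74% against 4.88% in replicate 1 and 4.05% against 3.64% in replicate 2. By H3K4me3 the left stretch took place 16 (3.84%) and the right stretch place 11 (4.52%). The ratio of mean H3K27me3 to mean H3K4me3 was lowest on the right stretch, at 0.942, and next lowest on the right arm of chromosome 1, at 1.04. In replicate 1 alone the right arms of chromosomes 1 and 3 also had less H3K27me3 than H3K4me3, and in replicate 2 the right stretch had 3.64% against 3.63%. The left stretch, at 1.92, took place 7 from the top. The marks were called at different thresholds, so a ratio of 1 has no meaning of its own and only the order of the arms is compared.

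**Figure D4:**
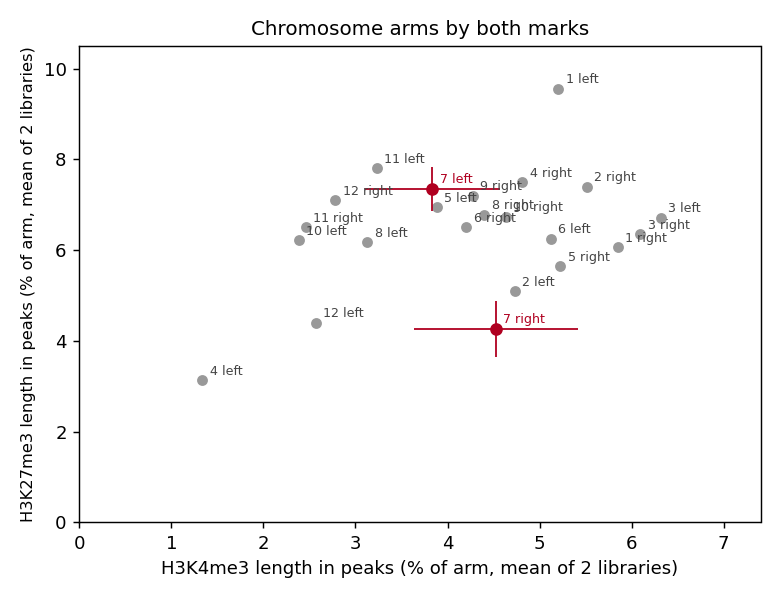
Mean H3K27me3 length in peaks (y axis, % of the arm) against mean H3K4me3 length in peaks (x axis, % of the arm) for 23 chromosome arms, each the mean of 2 libraries per mark. The 2 stretches of chromosome 7 are in red with bars reaching to the single libraries, the left at 7.35% H3K27me3 and 3.84% H3K4me3 and the right at 4.26% and 4.52%.

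Opposite directions of the 2 marks were not limited to chromosome 7. Of the 11 chromosomes with both arms, 4 had all libraries of one mark higher on one arm and all libraries of the other mark higher on the other, and 7 had both marks higher on the same arm. Chromosomes 1 and 5 had the direction of chromosome 7. On chromosome 1 the log2 of right over left was 0.16 and 0.18 in the H3K4me3 libraries, and -0.62 and -0.70 in the H3K27me3 libraries. On chromosome 5 it was 0.41 and 0.45, and -0.27 and -0.34. Chromosome 6 had the reverse direction, H3K4me3 standing at -0.29 and -0.27 and H3K27me3 at 0.07 and 0.04.

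The difference between the marks, H3K27me3 minus H3K4me3 in log2 of right over left, was the most negative on chromosome 7, at -1.03 (-1.16 to -0.91 over the 4 pairings of libraries). Chromosome 10 followed at -0.84 (-0.87 to -0.80) and chromosome 1 at -0.83 (-0.88 to -0.78). On chromosome 10 both marks were higher on the right, H3K4me3 by more. Without the first 2 Mb of the left stretch, chromosome 7 came to -0.57 and place 5 of 11. By peaks per Mb in place of length it came to -0.68 and place 3.

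**Figure D5:**
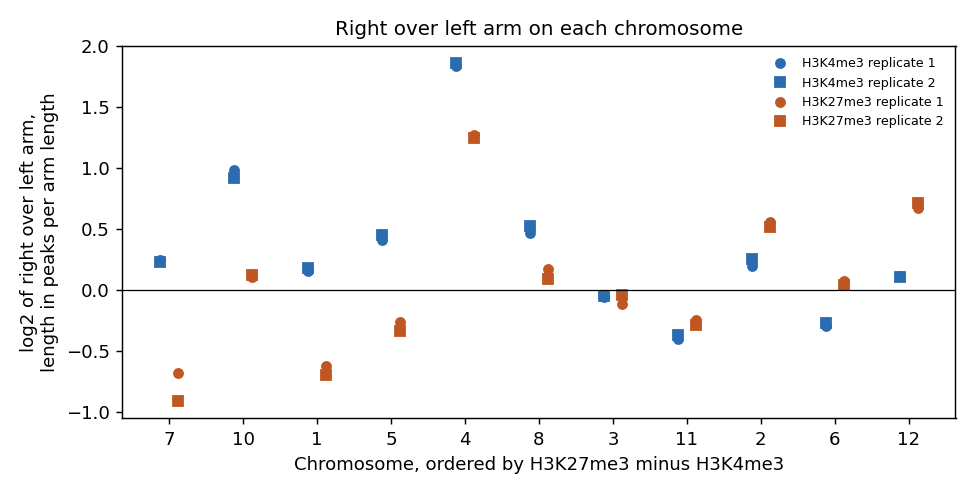
Log2 of right over left arm in length in peaks (y axis) for each chromosome with both arms (x axis, ordered by the difference between the marks), 1 point per library. Chromosome 7 stands first, with H3K4me3 at 0.25 and 0.23 and H3K27me3 at -0.68 and -0.91.

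The marks differed across the borders of the stretches in several places. Just outside the left end, from 0.5 to 1.0 Mb, H3K27me3 covered 13.1% and 12.5%, and just inside, from 1.0 to 1.5 Mb, its mean was 10.5%. Just outside the right end, from 28.6 to 29.1 Mb, it covered 18.5% and 17.2%, while the last right step had a mean of 6.83%. The right stretch thus ended before a stretch of chromosome end that was rich in H3K27me3. At the inner end of the left stretch, H3K27me3 went from 23.2% and 18.5% in the last 100 kb to 2.80% and 2.23% in the 500 kb beyond. Just before the right stretch, from 12.6 to 13.1 Mb, it was 1.41% and 0.829%, and its first step had 2.01% and 1.49%. The 2 Mb between the stretches had 1.34% and 1.01% H3K27me3 and 1.79% and 1.30% H3K4me3.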

How the data were processed

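Per the submitters' processing notes, fastp, Bowtie2, Picard, SAMtools, deepTools and MACS2 were used by the authors. The sources used here give no versions, control, thresholds or genome build. The deposited lists are in narrowPeak format for H3K4me3 and in broadPeak format for H3K27me3. The fold enrichment (a ratio over the caller's background) and the −log10 p and −log10 q of each peak are the authors' deposited values and served only to rank or filter peaks within a list. The deposited score was not used. The smallest deposited −log10 q was 2.01 for H3K4me3 and 1.01 for H3K27me3, so the lists end at different thresholds, and levels of the 2 marks are not on 1 scale. Tags in the deposited peak names differ between libraries, which may have been handled differently before calling.

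Coverage is the length in peaks over the length of a stretch. Peaks and regions belong to a stretch by their midpoint, and steps count bases. Peaks were shared when they had at least 1 bp in common. Groups came from the sample titles. Python 3.11.15, numpy 2.4.6, scipy 1.17.1 and matplotlib 3.10.9 were used, and the code for intervals was first tested on simulated peaks. The stretches, classes and comparisons were chosen with earlier results of these data known. Regions were named by a rule of size (the 5 longest regions of a mark, and the 3 longest pieces with both marks, 3 richest and poorest steps and 3 longest empty runs). Alternatives were a −log10 q of at least 5, lists cut to 19450 peaks, other borders and overlaps, and leaving out each library.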

Additional observations from a re-analysis of the deposited data

Results flagged for a closer look

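Over the full stretches, H3K4me3 was higher on the right in both of its libraries and H3K27me3 higher on the left in both of its own. On the log2 scale of right over left coverage, H3K4me3 was 0.25 in replicate 1 and 0.23 in replicate 2, and H3K27me3 was -0.68 and -0.91. The difference between the marks was not tested, since the stretches were chosen for it.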

How the results depend on the processing

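Of 80 recomputed values, 44 stayed within the limit set for them, 31 moved further and 5 changed sign. The limit was the spread between libraries where there was one, and otherwise the same place, the binomial interval of a share of steps (81.0% and 63.6% with steps of 1 Mb) or a like size (7.23 and 10.5 points for runs empty of H3K27me3 at 50 and 100 kb). Keeping only peaks whose −log10 q reached 5, log2 of right over left was 0.25 for H3K4me3 and -1.20 for H3K27me3 coverage, and 0.089 and -0.28 for median width. The difference in H3K27me3 length in peaks of at least 2000 bp was -9.21 percentage points. That in H3K4me3 peaks touching H3K27me3 was -3.35 points (-6.79 with all peaks). The cut kept 24.1% of left and 20.9% of right H3K27me3 peaks in replicate 1, and 18.2% and 12.3% in replicate 2. For H3K4me3 it kept 69.2% to 96.2%. With lists of equal length, H3K4me3 coverage gave 0.28, touching -4.91 points, and H3K4me3 sharing changed sign from -0.908 to 3.01 points. Sharing of H3K4me3 was also 0.0978 with the whole chromosome split in the gap and 0.666 with overlap of 50% of both peaks. With the right stretch cut to its near 10.1 Mb, H3K4me3 coverage reversed to -0.13, H3K27me3 coverage was -1.04, long-peak length -17.8 and touching -5.61 points. Cut to its far 10.1 Mb, coverage was 0.61 and -0.48, width 0.083 and -0.14, and touching -6.31 points. With the whole chromosome, H3K27me3 width was -0.14 and touching -7.97 points. Touching was -6.18 points with 50% of the H3K4me3 peak and -7.02 with bases of either H3K27me3 replicate, and the share of peaks of at least 5000 bp differed by -7.56 points.

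Without the first 2 Mb of the left stretch, chosen after seeing the data, coverage was 0.35 and -0.21, width 0.035 and -0.11, touching -3.89 points, H3K27me3 sharing -4.55 points (-6.39 in full), and long-peak length changed sign to 0.288 points. Chromosome 7 was then in place 5 of 11, and in place 3 by peaks per Mb (at -0.68). It kept first place in the other settings tried, with its own sparsest 2 Mb as the split among them (-0.93). Runs empty of H3K4me3 differed by -3.14 points at 50 kb and -1.24 at 100 kb, and the cause was not tested for any of these.

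Leaving out each library gave 0.23 to 0.25 for H3K4me3 and -0.91 to -0.68 for H3K27me3 coverage, 0.048 to 0.066 and -0.17 to -0.15 for width, -14.8 to -12.0 points for long-peak length and -7.55 to -6.26 points for touching. Sharing cannot be had with 1 library of a mark. No paired analysis was possible because no result comes from a test that a block could enter. Taken by replicate number, which the labels do not tie to a shared culture, H3K27me3 minus H3K4me3 was -0.93 and -1.14. The depth of the libraries is unknown, so its part in the number and width of peaks could not be measured.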
